A study of Rattus norvegicus with 6 samples.

Results

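The 47 genes described here make up the transforming growth factor beta (TGF-beta) and bone morphogenetic protein (BMP) signalling family, measured by RNA sequencing in dorsal root ganglia of rats after nerve injury. They are the TGF-beta, BMP, growth differentiation factor and activin or inhibin ligands, their receptors, the Smad proteins, the latent TGF-beta binding proteins and the secreted antagonists, chosen by gene symbol and by being listed in at least 3 of the 6 files, out of 14346 genes listed in at least 1 file. Of 59 rat symbols that matched, 47 met this rule and 42 of these were listed in all 6 files. Bmp2 was the member closest to the limit, listed in 3 files, and Bmp8a, listed in 2, was the closest gene outside it. Acvr1c and Gdf7 were listed in 1 file, and 9 symbols were listed in none, among them Inhba, which encodes the subunit of activin A.

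The injured animals gave 3 libraries from ganglia taken on day 7 after partial sciatic nerve ligation (pSNL), in which a part of the nerve is tied tightly, so that injured and spared sensory neurons lie side by side. These were compared with 3 libraries from ganglia taken on day 7 after sham surgery. The labels give neither strain, sex, age nor spinal level, and do not say whether a library is 1 animal; the p-values thus rest on the spread among libraries, some of which may be technical. Each library held 4310643 to 4416121 estimated counts.

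In this family a ligand dimer binds type II and type I receptor kinases, and the type I receptor phosphorylates receptor-regulated Smads, which join Smad4 and act in the nucleus. Smad2 and Smad3 carry the TGF-beta and activin signal, Smad1, Smad5 and Smad9 carry the BMP signal, and Smad6 and Smad7 are inhibitors. TGF-beta is secreted in a latent form held by latent TGF-beta binding proteins, and BMPs and activins are sequestered by noggin, chordin and follistatin. In injured dorsal root ganglia Smad1 is known for a part in axon regrowth, from work in mice.

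The ganglion label fitted the markers of sensory neurons, of which 9 of 10 were listed (Pou4f1 was listed in no file), with a summed level of 25775 to 27170 CPM in pSNL libraries and 23859 to 29717 CPM in sham libraries. CPM is the count divided by a scaled library size, and 1 CPM was 4.33 to 4.41 counts. Of 6 neuronal injury genes, all were higher in every pSNL library than in every sham library, and their sum was 846, 1599 and 1327 CPM in pSNL replicates 1 to 3 and 304 to 372 CPM in sham libraries. Sham replicate 3 stood apart, with 1893 CPM of 8 central nervous system glia markers where the pSNL libraries had 25.8 to 57.6 CPM and the other sham libraries 26.5 and 29.4 CPM. Skeletal muscle markers summed to 1115 CPM in pSNL replicate 3 and 571 CPM in sham replicate 3, against 11.4 to 19.8 CPM in the other 4 libraries (Mylpf was listed in no file). Where stated, a value was recomputed with 1 of the 6 libraries left out.

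Of the 47 genes, 38 passed the filter on low counts, and none of them passed the threshold of adjusted p = 0.05 in edgeR's quasi-likelihood test, where 0.46% of all 11091 tested genes did (0.442% higher and 0.018% lower in pSNL). DESeq2 called 5 of them (Ltbp1, Tgfbr2, Tgfbr3 and Smad1 higher and Inhbb lower in pSNL), where it called 2.59% of genes (1.96% higher and 0.632% lower), and limma on log2 FPKM called 0. At an unadjusted p under 0.05, 5 genes were higher (Ltbp1, Smad1, Tgfbr3, Tgfbr1 and Tgfbr2) and 4 were lower (among them Inhbb, Gdf1 and Nog), which is 23.7% of the 38 where the share over all genes was 15.5%. The median log2 fold change of the 38 genes was 0.21, against -0.002 over all tested genes, and 24 of 38 (63.2%) were above 0, against 49.4% of all genes. The groups did not overlap for 11 of 38 genes (28.9%), 7 higher and 4 lower, against 21.4% of all genes. Without pSNL replicate 1, the library with the weakest injury signal, edgeR called 2 of the genes, Smad1 (adjusted p = 0.0155) and Ltbp1 (adjusted p = 0.0404). Without each other library it called none, and 7 to 12 of the 38 had an unadjusted p under 0.05.

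The promoters of the genes with the smallest p in each direction are shown with matches to Smad and other motifs; 37 of 47 members matched 1 window of RefSeq (build GRCr8), and Gdf1 was left out. Each is the 250 bases before the annotated start, 5′ to 3′ on the strand of the gene. Capitals mark the Smad-binding box CAGAC, the GC element GGCGCC of BMP-responsive genes and the cAMP response element TGACGTCA, searched on both strands, and no matches overlapped. These were 3 of 5 motifs searched, and which of them to capitalise was chosen after the matches were seen.
Ltbp1: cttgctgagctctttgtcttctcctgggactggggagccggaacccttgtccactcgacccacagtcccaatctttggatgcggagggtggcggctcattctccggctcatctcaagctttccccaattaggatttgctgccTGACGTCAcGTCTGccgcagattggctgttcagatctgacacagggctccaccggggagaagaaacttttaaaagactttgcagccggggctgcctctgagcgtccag
Smad1: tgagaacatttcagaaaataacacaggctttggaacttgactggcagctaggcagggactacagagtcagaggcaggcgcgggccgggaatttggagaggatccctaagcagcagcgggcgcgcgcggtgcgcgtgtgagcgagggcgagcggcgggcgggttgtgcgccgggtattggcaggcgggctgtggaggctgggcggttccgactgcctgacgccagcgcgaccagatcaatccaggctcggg
Inhbb: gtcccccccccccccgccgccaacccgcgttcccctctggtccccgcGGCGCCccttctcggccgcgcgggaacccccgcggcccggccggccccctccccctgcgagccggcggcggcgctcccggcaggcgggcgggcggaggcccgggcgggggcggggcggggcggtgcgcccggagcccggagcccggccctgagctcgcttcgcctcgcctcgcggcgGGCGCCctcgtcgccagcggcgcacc
Nog: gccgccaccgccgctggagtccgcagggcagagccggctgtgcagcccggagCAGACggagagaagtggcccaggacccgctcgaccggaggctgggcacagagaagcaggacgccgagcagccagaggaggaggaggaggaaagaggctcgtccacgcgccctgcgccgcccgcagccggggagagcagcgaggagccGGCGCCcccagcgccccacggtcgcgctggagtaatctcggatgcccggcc
Ltbp1 (chr6:26177302-26177551, minus strand) and Smad1 (chr19:45417292-45417541, plus strand) were higher in pSNL, and Inhbb (chr13:33089374-33089623, minus strand) and Nog (chr10:74627502-74627751, minus strand) were lower. The Ltbp1 window held 1 Smad box and 1 cAMP response element, and the Smad1 window held none of the capitalised motifs. The Inhbb window, of which 86.8% of bases were G or C, held 2 GC elements, and the Nog window held 1 GC element and 1 Smad box. Over the 37 member windows 11 held a Smad box (29.7%, against 41.3% of the 8644 windows of tested genes), 10 held the GC element (27.0% against 17.3%) and 1, that of Ltbp1, held the cAMP response element (2.70% against 3.05%). The other motifs searched were the AP-1 site TGANTCA, in 1 member window (2.70% against 4.35%), and the Sp1 box GGGCGG, in 24 (64.9% against 59.6%). A match is only a stretch of letters, and no binding was measured.

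Levels between genes were compared per length, as the authors' FPKM (fragments scaled to gene length and depth). Fstl1, a secreted follistatin-like glycoprotein that rat sensory neurons are known to release, was by far the most abundant, at 454 to 793 FPKM over the 6 libraries. Ltbp3 followed at 41.6 to 48.1 FPKM, and then Gdf1, Smad1, Smad2, Tgfbr2, Acvr1, Gdf11 and Smad4 with means of 19.3 to 11.95 FPKM. The Gdf1 value is of reads that cannot be told apart from those of Cers1. Within these 7 genes, neighbours in the order overlapped in range. At the other end, Bmp2, Bmp15, Gdf9, Bmpr1b and Acvr2b had means of 0.205 to 0.427 FPKM over all 6 libraries.

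**Figure D1:**
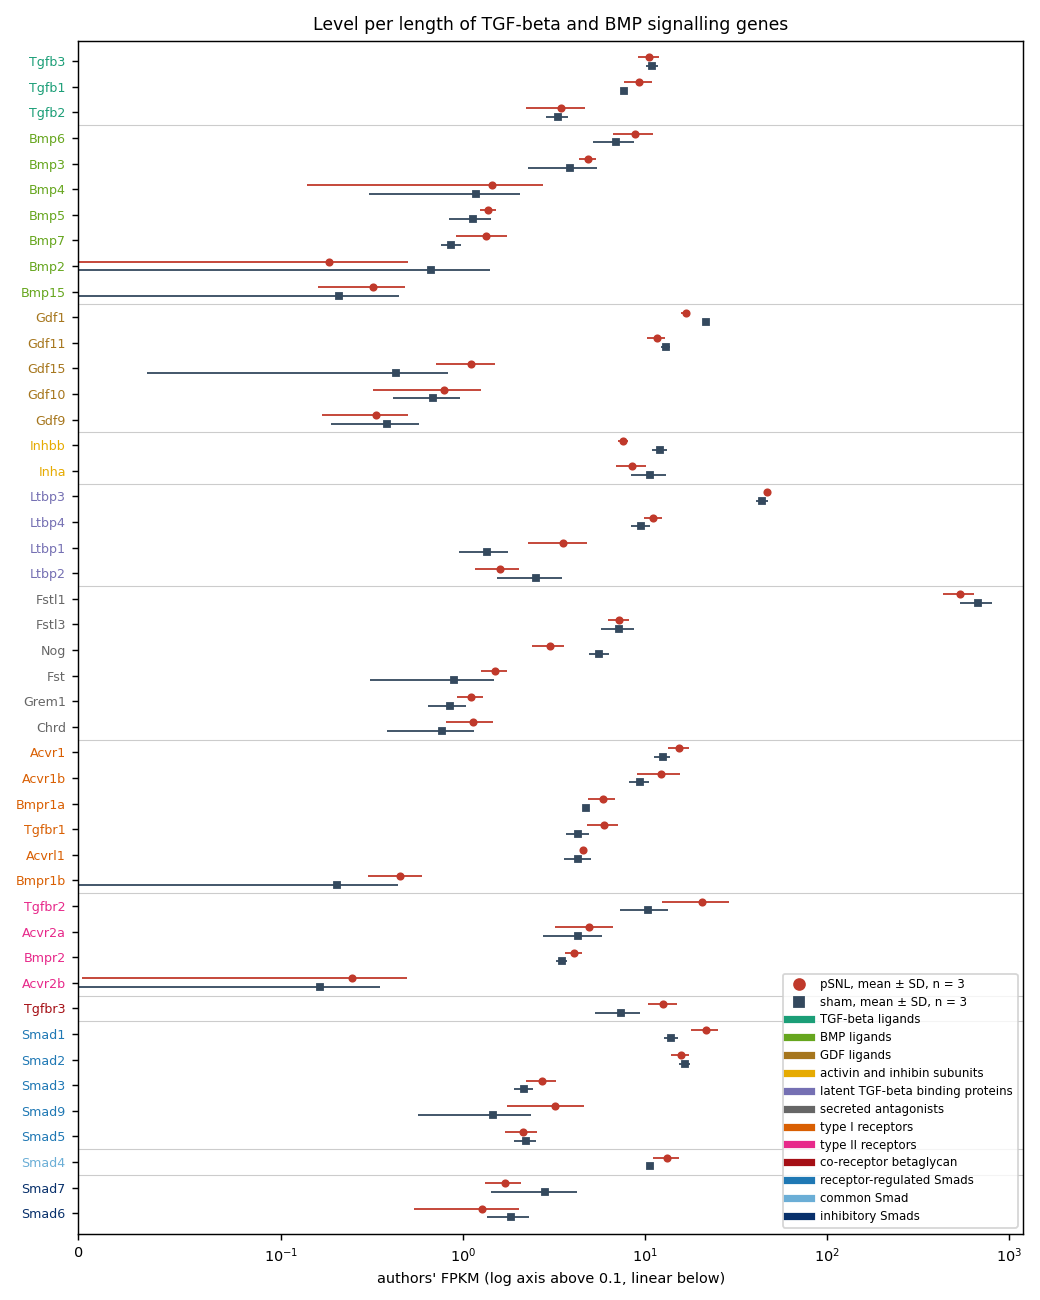
Level per length of 46 of the 47 genes as the authors' FPKM, by role (label colour), with the mean and SD of 3 pSNL libraries (circles) above those of 3 sham libraries (squares); the axis is logarithmic above 0.1 and bars stop at 0. Fstl1 lies at 454 to 793 FPKM, over all other genes, and 5 genes have means under 0.5 FPKM.

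Among the 3 TGF-beta ligands, Tgfb3 had the highest level per length with a mean of 10.8 FPKM, followed by Tgfb1 at 8.51 FPKM and Tgfb2 at 3.40 FPKM. Tgfb1, the isoform made by immune and stromal cells in injured tissue, was at 12.9, 16.4 and 11.9 CPM in pSNL libraries and at 11.5, 11.5 and 11.3 CPM in sham libraries. The groups did not overlap, but the lowest pSNL library lay less than 1 CPM above the sham libraries, and the log2 fold change was 0.27 (95% interval -0.16 to 0.71; edgeR adjusted p = 0.545) and 0.12 without pSNL replicate 2. Tgfb3 had a log2 fold change of -0.06 (-0.37 to 0.25) and Tgfb2 of 0.04 (-0.57 to 0.65), with overlapping groups.

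The 4 latent TGF-beta binding proteins differed from each other in direction. Ltbp1, which ties latent TGF-beta to the matrix, had the largest positive log2 fold change of the 38 tested genes. It was at 16.8, 31.7 and 19.0 CPM in pSNL replicates 1 to 3 and at 7.34, 11.7 and 6.89 CPM in sham replicates 1 to 3. Every pSNL library lay above every sham library, with means of 22.5 ± 8.02 CPM in pSNL and 8.64 ± 2.66 CPM in sham (SD, n = 3 each), a log2 fold change of 1.38 ± 0.30 (SE) or 2.60-fold, and an edgeR adjusted p of 0.0820, which ranged from 0.00556 (DESeq2) to 0.256 (without pSNL replicate 2) over the alternatives. Ltbp2, an elastic fibre protein that does not bind latent TGF-beta, was at 13.4, 8.09 and 9.86 CPM in pSNL libraries and 14.9, 24.1 and 11.03 CPM in sham libraries. The groups overlapped, and its log2 fold change of -0.67 (-1.36 to 0.02) was -0.31 without sham replicate 2. Ltbp3 was at 202, 213 and 207 CPM in pSNL libraries and at 191, 216 and 183 CPM in sham libraries, a log2 fold change of 0.08 whose interval (-0.12 to 0.27) was the narrowest of the 38. Ltbp4 was also close between groups, at 0.22 (-0.07 to 0.50).

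In the fit on all 6 libraries the receptors showed 1 direction. All 9 tested receptors, counting the co-receptor betaglycan, had a positive log2 fold change, from 0.08 to 0.99 with a median of 0.30 (49.4% of all genes were above 0). The 3 with an unadjusted p under 0.05 were the TGF-beta receptors Tgfbr1, Tgfbr2 and Tgfbr3 (9.41% of all genes were higher at this level). The sign of 2 of the 9 depended on 1 library: Acvr2a was at -0.03 without sham replicate 3 and Acvrl1 at -0.01 without sham replicate 1. With single libraries left out, the unadjusted p of Tgfbr2 was above 0.05 in 3 of 6 fits (0.0585 to 0.0633), that of Tgfbr1 in 2 of 6 (0.125 and 0.0878) and that of Tgfbr3 in none.

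Tgfbr2, the type II receptor that binds TGF-beta itself, was at 39.7, 61.7 and 27.8 CPM in pSNL replicates 1 to 3 and at 25.4, 25.7 and 14.0 CPM in sham replicates 1 to 3. The groups did not overlap, although pSNL replicate 3 lay only slightly above sham replicates 1 and 2. Means were 43.1 ± 17.2 CPM in pSNL and 21.7 ± 6.67 CPM in sham, a log2 fold change of 0.99 ± 0.35 (1.98-fold; edgeR adjusted p = 0.259, and 0.0339 to 0.525 over the alternatives), which was 0.75 without sham replicate 3 and 0.63 without pSNL replicate 2. Tgfbr3 encodes betaglycan, a membrane proteoglycan that presents TGF-beta to its receptors and also binds inhibin. It was at 47.7, 60.3 and 42.9 CPM in pSNL libraries and at 38.5, 28.2 and 21.8 CPM in sham libraries. All pSNL libraries were the higher ones, with a log2 fold change of 0.77 ± 0.21 (1.703-fold; edgeR adjusted p = 0.141, and 0.0457 to 0.426 over the alternatives) and 0.59 without sham replicate 3. Tgfbr1, the type I kinase of TGF-beta, was at 30.2, 42.3 and 31.0 CPM in pSNL libraries and at 28.2, 26.4 and 20.9 CPM in sham libraries, a log2 fold change of 0.45 ± 0.17 (edgeR adjusted p = 0.254, and 0.207 to 0.634 over the alternatives). It was 0.28 without pSNL replicate 2 and 0.33 without sham replicate 3.

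The receptors of BMPs and activins differed less and their groups overlapped. Among BMP type I receptors the order per length was Acvr1 with a mean of 14.0 FPKM, Bmpr1a with 5.32 FPKM, Acvrl1 (the endothelial receptor ALK1) with 4.44 FPKM and Bmpr1b with 0.327 FPKM. Acvr1 was at 23.8, 31.7 and 27.1 CPM in pSNL libraries and at 22.2, 25.02 and 20.0 CPM in sham libraries, with 1 sham library above the lowest pSNL library. The log2 fold changes were 0.30 (-0.05 to 0.64) for Acvr1, 0.29 (-0.09 to 0.67) for Bmpr1a and 0.08 (-0.30 to 0.47) for Acvrl1. For the activin type I receptor Acvr1b the log2 fold change was 0.38 (-0.07 to 0.83), for the type II receptor Acvr2a 0.21 (-0.55 to 0.96) and for the BMP type II receptor Bmpr2 0.21 (-0.17 to 0.60). Bmpr1b and Acvr2b were too low for the test, with 9 and 6 counts summed over pSNL libraries and 4 and 4 over sham libraries.

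**Figure D2:**
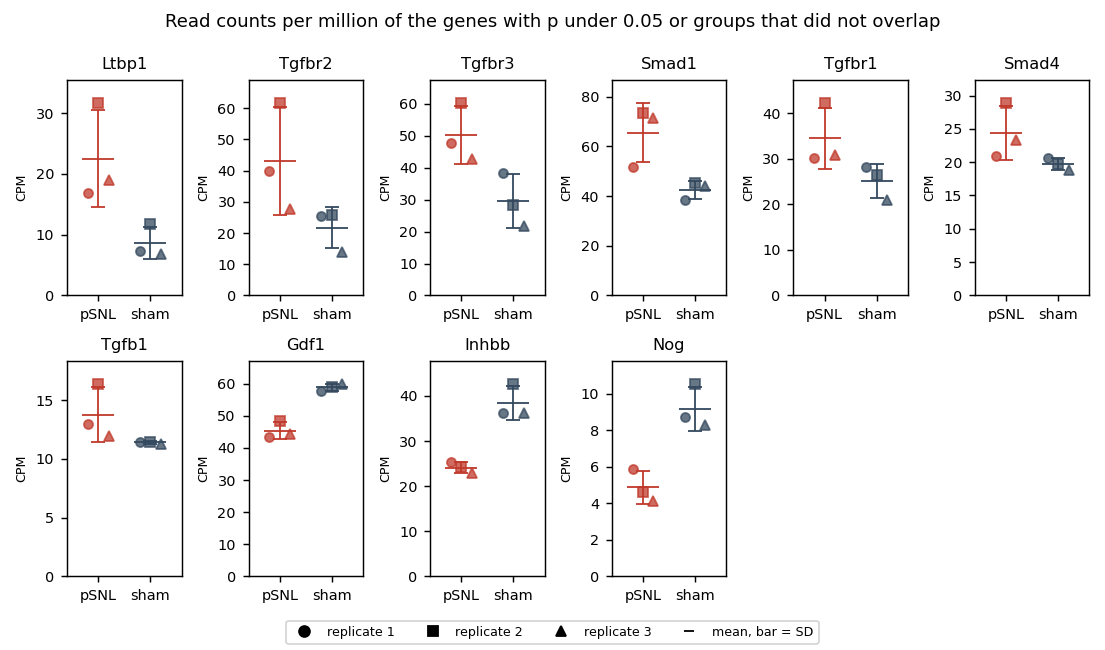
CPM in each library (marker shape gives the replicate number) with mean and SD, for 10 of the 11 tested genes whose groups did not overlap, which include 8 of the 9 with an unadjusted p under 0.05; pSNL is left of sham and axes start at 0. Ltbp1 is at 16.8 to 31.7 CPM in pSNL and 6.89 to 11.7 CPM in sham, and Nog at 4.13 to 5.90 CPM in pSNL and 8.27 to 10.6 CPM in sham.

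Several of these genes shared their extreme libraries. The level was highest in pSNL replicate 2 and lowest in sham replicate 3 for 9 of the 47 genes (Acvr1, Acvr1b, Ltbp1, Ltbp4, Smad4, Tgfb1, Tgfbr1, Tgfbr2 and Tgfbr3). How many of all genes had these extremes was not counted, and this pair of libraries was the most unlike of all pairs in counts. The summed level of 8 fibroblast markers, all listed, had the same extremes, with 4209, 6972 and 4906 CPM in pSNL replicates 1 to 3 and 3791, 2618 and 1743 CPM in sham replicates 1 to 3. Of these 8 markers, all had a positive log2 fold change and 1 passed the threshold (Mgp). Macrophage markers, 10 of 10 listed, summed to 282, 471 and 467 CPM in pSNL libraries and 184, 168 and 212 CPM in sham libraries, while T cell markers summed to under 1 CPM in every library. Endothelial markers did not separate the groups, with 157 to 190 CPM in pSNL and 178 to 217 CPM in sham libraries. Bone and cartilage markers, 8 of 9 listed, summed to 480 to 563 CPM in pSNL and 310 to 458 CPM in sham libraries, without overlap and lowest in sham replicate 3. Only 4 of them were tested, of which 2 had a positive and 2 a negative log2 fold change. Schwann cell markers, 8 of 8 listed, summed to 20651 to 31918 CPM in pSNL and 18456 to 26586 CPM in sham libraries, and 3 of 8 had a negative log2 fold change. At an unadjusted p under 0.05 in edgeR, 3 of 8 Schwann cell, 6 of 8 fibroblast and 6 of 10 macrophage markers were higher. Of all genes 9.41% were. What part these cells had in the differences was not tested, and in bulk tissue more cells of a type and more RNA per cell cannot be told apart.

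**Figure D3:**
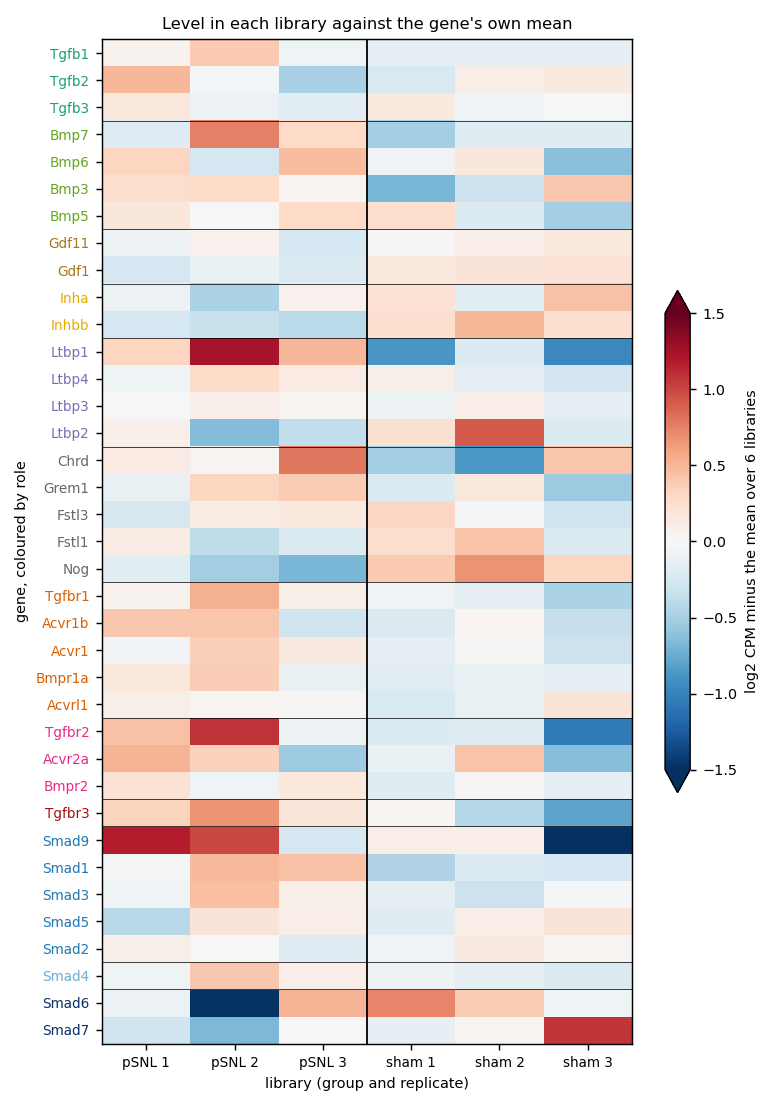
Level of 37 of the 38 tested genes in each library as log2 CPM minus the gene's own mean over 6 libraries (red above it, blue below it; colours stop at 1.5), with roles in the label colours and pSNL left of sham. Ltbp1, Tgfbr2 and Tgfbr3 are reddest in pSNL replicate 2 and bluest in sham replicate 3, and Smad7 is reddest in sham replicate 3.

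Among the 8 Smads the BMP-pathway Smad1 had the smallest p. It was at 51.8, 73.5 and 71.3 CPM in pSNL libraries and at 38.5, 45.4 and 43.9 CPM in sham libraries. Each pSNL library exceeded each sham library, with pSNL replicate 1 nearest to sham, and means of 65.5 ± 11.98 CPM in pSNL and 42.6 ± 3.64 CPM in sham. The log2 fold change was 0.62 ± 0.14 (1.54-fold; edgeR adjusted p = 0.0861, and 0.00928 to 0.340 over the alternatives) and 0.77 without pSNL replicate 1. The 0.00928 came from a fit without sham replicate 3 and pSNL replicate 1 together, added after the data were seen. The lowest adjusted p of the other alternatives was 0.0155, in edgeR without pSNL replicate 1.

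The other BMP-pathway Smads had lower levels per length, against 17.8 FPKM for Smad1. Smad9 had a mean of 2.33 FPKM, and Smad5 had a mean of 2.18 FPKM and a log2 fold change of -0.06 (-0.79 to 0.67). Smad9 was at 6.81, 6.01 and 2.52 CPM in pSNL libraries and at 3.21, 3.21 and 0.69 CPM in sham libraries. Its groups overlapped, both replicate 3 libraries were the lowest of their group, and the log2 fold change of 1.10 had an interval of -0.11 to 2.31 and was 0.66 without sham replicate 3. Among the TGF-beta Smads, Smad2 was at 44.7, 41.8 and 36.7 CPM in pSNL libraries and at 40.6, 46.4 and 43.2 CPM in sham libraries, a log2 fold change of -0.08 (-0.35 to 0.19). Smad3, with a mean of 2.45 FPKM against 16.1 FPKM for Smad2, was at 0.33 (-0.14 to 0.79), and 0.16 without pSNL replicate 2. The shared partner Smad4 was at 20.9, 28.9 and 23.4 CPM in pSNL libraries and at 20.6, 19.7 and 18.8 CPM in sham libraries. The groups did not overlap but came within 1 CPM of each other, and the log2 fold change was 0.30 (-0.05 to 0.66; edgeR adjusted p = 0.392) and 0.16 without pSNL replicate 2.

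Both inhibitory Smads had negative log2 fold changes whose intervals held 0. Smad7 was at 7.49, 5.78 and 9.17 CPM in pSNL libraries and at 8.48, 9.41 and 19.3 CPM in sham libraries. The high sham value came from sham replicate 3, the library with central glia transcripts, and the log2 fold change of -0.73 (-1.49 to 0.04) was -0.26 without it. Smad6 was at 0.69 to 2.75 CPM in pSNL and 1.84 to 3.21 CPM in sham libraries.

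The BMP, growth differentiation factor and activin ligands were led per length by Gdf11, Inhbb, Inha and Bmp6, setting aside Gdf1, whose reads are shared with Cers1. Inhbb, which encodes the beta B subunit of activin B and inhibin B, had the smallest p of the 38 genes. It was at 25.3, 24.2 and 22.9 CPM in pSNL libraries and at 36.2, 42.7 and 36.2 CPM in sham libraries. The groups were well apart, with means of 24.1 ± 1.23 CPM in pSNL and 38.4 ± 3.77 CPM in sham, a log2 fold change of -0.67 ± 0.13 (0.627-fold), and an edgeR adjusted p of 0.0576, just above the threshold. It ranged from 0.0315 (DESeq2) to 0.216 (without sham replicate 2) over the alternatives, and the log2 fold change lay between -0.72 and -0.59 whichever library was left out. Inha, the alpha subunit that makes the dimer an inhibin, was at -0.33 (-0.82 to 0.16).

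Gdf1 was at 43.5, 48.4 and 44.4 CPM in pSNL libraries and at 57.8, 59.1 and 60.0 CPM in sham libraries, a log2 fold change of -0.37 ± 0.10 with no overlap (edgeR adjusted p = 0.116). These reads cannot be assigned to Gdf1. The ceramide synthase gene Cers1 was listed with the same length of 2683 bases and the same expected count in all 6 libraries, and the reference annotation gives both genes the same span, so the estimate split 1 set of reads equally between them. Gdf11, a relative of myostatin, was at 47.5, 52.0 and 41.7 CPM in pSNL libraries and at 50.7, 53.5 and 55.4 CPM in sham libraries. Its groups overlapped, and the log2 fold change was -0.18 (-0.43 to 0.08).

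All 4 tested BMP ligands had positive log2 fold changes, from 0.28 to 0.61, where 49.4% of all genes were above 0. None reached an unadjusted p of 0.05. Bmp6, the most abundant at a mean of 7.92 FPKM, was at 9.71 to 16.1 CPM in pSNL and 7.58 to 13.1 CPM in sham libraries, a log2 fold change of 0.34 (-0.25 to 0.92) and 0.14 without sham replicate 3. Bmp3, Bmp5 and Bmp7 were at 0.33, 0.28 and 0.61, each with an interval that held 0. Estimated counts of Inhbb, Bmp3, Bmp4 and Bmp5 were not whole in any library, so part of their reads was shared out by the authors' estimate.

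The low ligands could not be compared. Bmp4 had 29.3 counts summed over pSNL libraries and 23.9 over sham libraries, of which most of the pSNL counts came from replicate 1 (4.51 CPM against 0.97 and 1.19 CPM). Gdf15, a stress-induced ligand, had 13 counts over pSNL and 5 over sham libraries, and Gdf10 had 25 and 22. Bmp2 had 3 counts over pSNL and 11 over sham libraries, and was highest in sham replicate 3 (1.84 CPM).

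Of 6 tested secreted antagonists, 4 had a negative log2 fold change, of which Fstl3 was at -0.00, and the median over the 6 was -0.17. The BMP antagonist noggin was among those with an unadjusted p under 0.05 (6.07% of all genes were lower at this level). Nog was at 5.90, 4.62 and 4.13 CPM in pSNL libraries and at 8.71, 10.6 and 8.27 CPM in sham libraries. Each pSNL library lay below each sham library, with means of 4.89 ± 0.916 CPM in pSNL and 9.18 ± 1.21 CPM in sham, a log2 fold change of -0.91 ± 0.26 (0.534-fold; edgeR adjusted p = 0.141, and 0.0926 to 0.398 over the alternatives), the most negative of the 38. The 0.0926 came from the fit without sham replicate 3 and pSNL replicate 1 together, added after the data were seen. The lowest adjusted p of the other alternatives was 0.119, in limma on log2(FPKM + 1).

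Fstl1 was at 1478, 1044 and 1170 CPM in pSNL libraries and at 1633, 1836 and 1186 CPM in sham libraries. In this gene pSNL replicate 1 lay above sham replicate 3, so the groups overlapped, and the log2 fold change was -0.33 (-0.76 to 0.09; edgeR adjusted p = 0.427). It was -0.48 without pSNL replicate 1, -0.50 without sham replicate 3 and -0.64 without both (adjusted p = 0.00673, a fit added after the data were seen; 0.00673 to 0.742 over all alternatives). Fstl3 was at 4.54 to 5.96 CPM in pSNL and 4.37 to 6.65 CPM in sham libraries, a log2 fold change of -0.00 (-0.65 to 0.65) that was 0.12 without pSNL replicate 1 and 0.17 without sham replicate 1. The antagonists Chrd and Grem1 were low, at 3.01 to 5.05 and 3.41 to 4.82 CPM in pSNL and at 1.61 to 3.91 and 2.53 to 4.13 CPM in sham libraries, with positive log2 fold changes of 0.56 and 0.38 whose intervals held 0. Follistatin (Fst) had 20 counts over pSNL and 12 over sham libraries and was not tested.

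**Figure D4:**
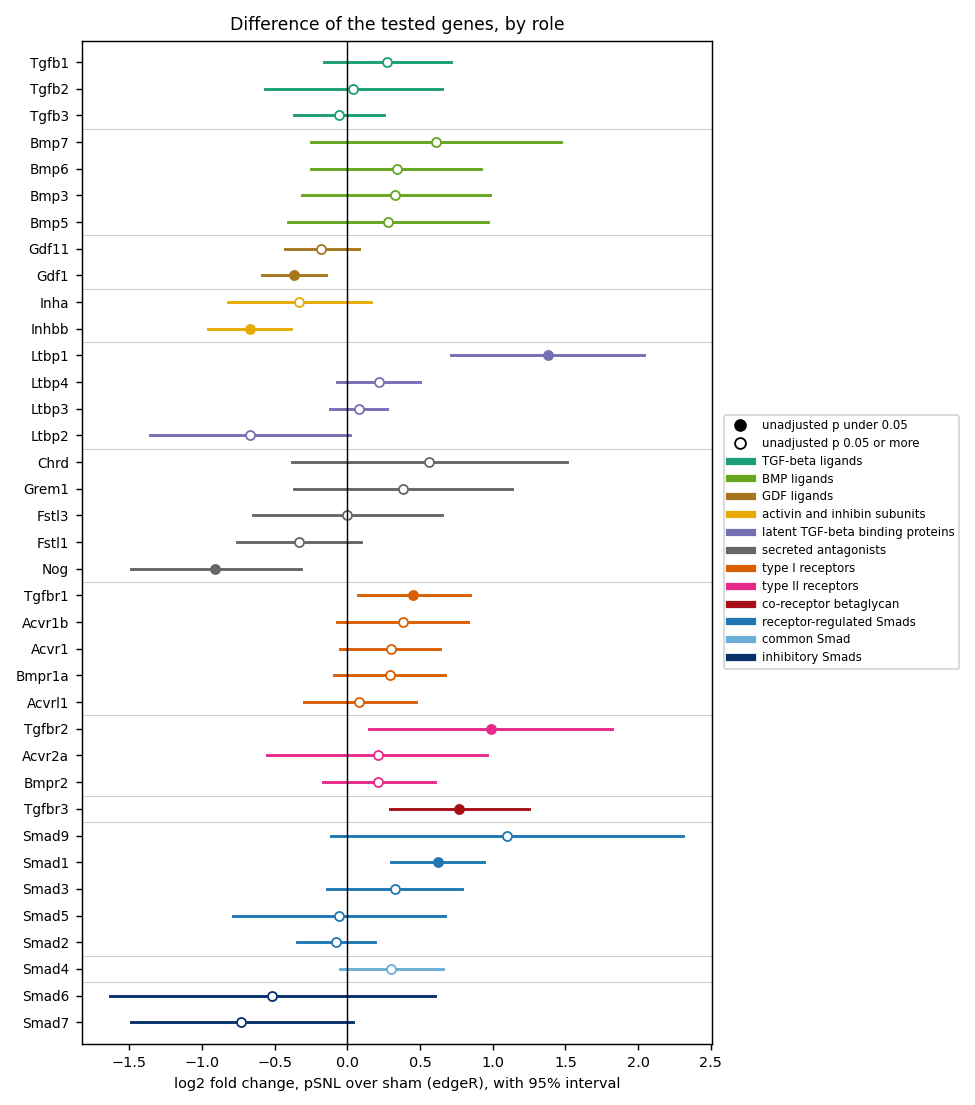
Log2 fold change of pSNL over sham with its 95% interval (edgeR) for 37 of the 38 tested genes, grouped by role; filled circles have an unadjusted p under 0.05 and none passes the threshold after adjustment. All 9 receptors lie right of 0, from 0.08 to 0.99, while Nog (-0.91) and Inhbb (-0.67) lie left of it.

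Of 87 other genes of the pathway, 74 were listed and 63 tested, of which 3 rose (Hamp, Tgfbi and Bgn) and none fell in edgeR's test, where 0.442% of all genes rose. At an unadjusted p under 0.05, 19 were higher and 0 lower (9.41% and 6.07% of all genes), the median log2 fold change was 0.15 (-0.002 over all genes), and DESeq2 called 9 (2.59% of all genes). Of these genes, Dcn and Col1a1 are also in the fibroblast marker list.

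Among 16 tested target genes 2 rose and none fell at the threshold, where 0.442% of all genes rose. Of the 16, 10 had a positive and 6 a negative log2 fold change. Hamp, which encodes hepcidin and is a BMP and Smad target in liver, was at 4.77, 10.9 and 6.42 CPM in pSNL libraries and at 0.00, 0.23 and 0.46 CPM in sham libraries. Its 96 pSNL counts stood against 3 sham counts, a ratio of 31.95 with an exact 95% counting interval of 10.6 to 158, which covers counting error only (edgeR adjusted p = 0.0172). The call was lost without pSNL replicate 2 (0.0774) or sham replicate 2 (0.130). Tgfbi, a matrix protein named for its induction by TGF-beta, rose and was at 139, 223 and 157 CPM in pSNL libraries and at 84.4, 75.3 and 67.8 CPM in sham libraries, a log2 fold change of 1.19 ± 0.18 or 2.28-fold (edgeR adjusted p = 0.0361). All pSNL libraries were far above the sham libraries, yet it was called without pSNL replicate 1 or 2 (0.00634 and 0.0390) and not without any other single library (0.0589 to 0.201).

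Other TGF-beta targets did not pass the threshold. Some differed little: the log2 fold change was -0.04 (-0.58 to 0.50) for Acta2, -0.23 (-0.92 to 0.45) for Tagln and 0.17 (-0.35 to 0.68) for Cdkn2b. Fibronectin (Fn1) was at 122, 182 and 122 CPM in pSNL libraries and at 82.3, 68.4 and 63.9 CPM in sham libraries, without overlap (adjusted p = 0.0576, and 0.0326 without pSNL replicate 1; 1.49e-05 to 0.220 over the alternatives). The cell cycle inhibitor Cdkn1a, also a p53 target, was at 17.5, 34.7 and 37.6 CPM in pSNL libraries and at 5.50, 8.72 and 10.34 CPM in sham libraries, again without overlap (adjusted p = 0.0639, and 0.00347 without pSNL replicate 1; 2.26e-05 to 0.252 over the alternatives). The growth factor Ccn2 was at 10.4, 28.4 and 15.4 CPM in pSNL libraries and at 10.5, 7.80 and 9.19 CPM in sham libraries, and its groups overlapped (adjusted p = 0.244).

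The Id genes, direct targets of BMP Smads, did not share a direction. Id1 was at 11.8, 16.2 and 17.4 CPM in pSNL libraries and at 17.7, 17.4 and 25.1 CPM in sham libraries, a log2 fold change of -0.40 ± 0.21 (edgeR adjusted p = 0.392) that was -0.22 without sham replicate 3. Id2 was at 16.4, 21.3 and 15.4 CPM in pSNL libraries and at 15.8, 14.0 and 23.7 CPM in sham libraries (-0.01 ± 0.22). Id3 was at 84.7, 97.8 and 87.4 CPM in pSNL libraries and at 87.8, 66.6 and 56.5 CPM in sham libraries, a log2 fold change of 0.36 ± 0.15 (adjusted p = 0.304). The groups overlapped for Id2 and Id3, and for Id1 they nearly touched.

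**Figure D5:**
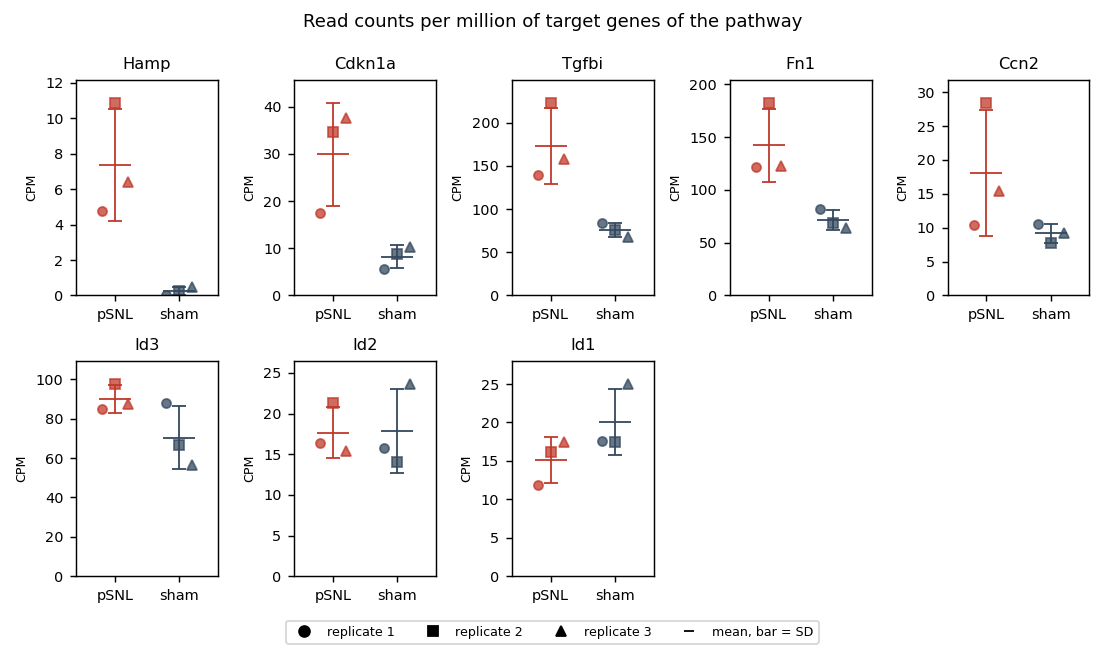
CPM in each library with mean and SD for 8 target genes of the pathway; pSNL is left of sham and axes start at 0. Hamp and Tgfbi passed the threshold; Ccn2 is at 10.4 to 28.4 CPM in pSNL and 7.80 to 10.5 CPM in sham, and Id1 at 11.8 to 17.4 CPM in pSNL and 17.4 to 25.1 CPM in sham.

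Of 23 tested extracellular regulators 1 rose and none fell, and 9 were higher at an unadjusted p under 0.05 (0.442% and 9.41% of all genes were higher at these thresholds). Biglycan (Bgn), a small proteoglycan that binds TGF-beta, was at 118.9, 139.4 and 122.6 CPM in pSNL libraries and at 85.9, 80.7 and 75.4 CPM in sham libraries, a log2 fold change of 0.66 ± 0.10 (edgeR adjusted p = 0.0249). It was called without pSNL replicate 1 or 3 (0.0155 and 0.0409) and lost without each other library (0.0532 to 0.158). Thrombospondin 1 (Thbs1), an activator of latent TGF-beta, was at 10.4, 15.03 and 5.96 CPM in pSNL libraries and at 3.44, 3.67 and 1.84 CPM in sham libraries, without overlap (adjusted p = 0.0820, and 0.0414 without pSNL replicate 3; 0.0160 to 0.292 over the alternatives). Fibrillin 1 (Fbn1), the microfibril protein that anchors latent TGF-beta binding proteins, was at 54.3, 78.4 and 53.7 CPM in pSNL libraries and at 39.0, 36.7 and 26.2 CPM in sham libraries (adjusted p = 0.0891). The secreted BMP antagonist Sostdc1 was higher in each pSNL library, at 86.5, 113 and 78.4 CPM in pSNL libraries and 44.0, 53.7 and 28.3 CPM in sham libraries, a log2 fold change of 1.14 ± 0.24 (adjusted p = 0.0967, and 6.53e-05 with DESeq2). For Bgn, Thbs1, Fbn1 and Sostdc1 the lowest of the 6 libraries was sham replicate 3 and the highest pSNL replicate 2. The fibroblast sum had the same extremes. Among the target genes with values above, so did Tgfbi, Fn1 and Id3, while Hamp, Cdkn1a, Ccn2, Id1 and Id2 did not. The share of all genes with these extremes was not counted.

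Of 20 tested intracellular regulators edgeR called 0 and 3 were higher at an unadjusted p under 0.05, where 9.41% of all genes were. These were the ubiquitin ligase Smurf1, at 71.7, 85.8 and 83.3 CPM in pSNL and 64.6, 60.8 and 57.5 CPM in sham libraries (adjusted p = 0.115), and the Smad-binding repressors Zeb2 and Zeb1 (adjusted p = 0.147 and 0.272). DESeq2 called none of the 3. Co-receptors and decoys (3 tested) had log2 fold changes of 0.22 for Bambi, -0.16 for Rgma and 0.00 for Eng, with adjusted p of 0.787 to 0.991. Of the 5 other ligands only Lefty2 was tested, at 0.42 with an interval of -1.93 to 2.76.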

How the data were processed

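RNA was taken with Trizol from frozen ganglia and libraries were built from total RNA with a BGISEQ-500 kit, per the labels' protocols. The protocols also name Illumina, so the sequencing platform is not certain. Each library's deposited file lists genes with their length, expected count and FPKM, per the file headers. CASAVA 1.4 and Bowtie2 are named in the submitters' processing notes. No source used here names the quantifier, build, annotation or use of strand. The authors' FPKM values were used for levels between genes. Genes missing from a library's list were set to 0. Gene IDs were matched to GRCr8 RefSeq symbols (14227 by ID, 16 by transcript accession, 103 unmatched); Smad2 was matched by accession.

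Expected counts (estimated by the authors) were rounded and tested with edgeR 4.0.16 (R 4.3.3): TMM, default filter on low counts, robust quasi-likelihood F test, two-sided, Benjamini-Hochberg over 11091 genes, threshold 0.05. CPM values use the unrounded counts and TMM-scaled sizes; errors are SD over 3 libraries or SE (the log2 fold change over the root of F). Alternatives used DESeq2 1.42.0, limma 3.58.1 on log2(FPKM + 0.1) and log2(FPKM + 1), other scaling and filters, and each library left out. Further alternatives were a block for replicate number and a fit without sham replicate 3 and pSNL replicate 1 together. That last fit was added after the data were seen, and ranges over the alternatives include it. The fit code was run on simulated counts with a common dispersion for all genes and no library that stood apart. Such counts do not show how the fit behaves on these libraries. No 2 libraries agreed within sampling noise. Genes with values in every library were those with an unadjusted p under 0.05, with groups that did not overlap, or among the 10 highest by FPKM (Ltbp2, Smad7 and Smad9 were added after their values were seen); of other pathway genes, those past the threshold, otherwise the smallest p of each list, and Id1, Id2, Id3 and Hamp. A member and a target gene that meet this rule are not reported here, though counts over lists include them. The members, lists and this rule were chosen with earlier results of these data known. A planned comparison of protein sequences was not made.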

Additional observations from a re-analysis of the deposited data

How the results depend on the processing

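With 3 libraries a group and 9 members too low to test, a p that missed the threshold does not show that levels were equal. The count of members past the threshold was 0 in the edgeR fit and stayed 0 with RLE factors, library size only, the stricter filter of 5 CPM, limma and members listed in at least 1 file; it was 1 with no filter, 5 with DESeq2 and 0 to 2 with 1 library left out. Leaving out sham replicate 3 and pSNL replicate 1 together, chosen after seeing the data, gave 5 (among them Inhbb, Smad1, Ltbp1 and Fstl1). For all genes the count of 51 was 89 with no filter, 320 with DESeq2, 390 without both libraries and 5 to 217 with 1 library left out. For other pathway genes the count of 3 was 9 with DESeq2, 7 without both libraries and 0 to 6 with 1 left out. The members' median log2 fold change of 0.21 was 0.12 to 0.24 with 1 library left out, 0.16 without both and 0.17 on log2(FPKM + 1). Correlations of deviations were 0.032, 0.011 and 0.123 for libraries with equal replicate numbers in the titles, and -0.105 to 0.104 for unequal numbers. With 3 libraries a group these values cannot exclude pairing, and the skeletal muscle transcripts were high in both replicate 3 libraries. With the replicate block the counts were 111 for all genes, 8 for other pathway genes and 2 for members (Ltbp1 and Tgfbr2). Of the 240 values of 16 members checked under the alternatives, none turned its sign and 15 crossed the threshold. These 16 had been picked by a small p, groups without overlap or a high level. A turned sign was thus unlikely for those whose groups did not overlap. Signs did turn among members outside the 16, as for Tgfb2 (-0.24 to 0.25 over the alternatives), Acvr2a (-0.23 to 0.51) and Smad5 (-0.18 to 0.18). The cause of these differences was not tested.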
